A study of Mus musculus with 44 samples.

Results

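Nuclear RNA of hepatocytes was compared between mice with advanced steatohepatitis on a choline-deficient diet and mice on a low-fat diet. The comparison takes every gene in 3 advanced and 4 control libraries of tagged hepatocyte nuclei, 7 of the 44 libraries of the series, and 13277 of 20105 measured genes passed the expression filter. All mice were males of the HEP-INTACT line, in which nuclei of hepatocytes bear a tag by which they can be captured from a liver homogenate. The labels name neither the promoter behind the tag nor the age of the mice. Control mice ate a low-fat diet for 7 weeks. Advanced mice ate CDAHFD, a high-fat diet without choline and with amino acids in place of protein, for the same 7 weeks. A further 4 mice on CDAHFD were classed as mild. The split into mild and advanced was made on histology, with fibrosis seen in advanced livers, so it was not randomised. Comparison groups were the same hepatocyte preparation from a 20-week study of the FPC diet (3 advanced and 4 control mice) and whole liver nuclei of the same CDAHFD and control mice. Control mice of the FPC study ate a low-fat diet for 20 weeks. The p-values cover the spread between these mice.

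Choline is needed to make phosphatidylcholine, the surface phospholipid of very low density lipoprotein (VLDL), and the liver exports triglyceride in VLDL. When choline and methionine are short, triglyceride stays in the hepatocyte, and inflammation and fibrosis follow within weeks, usually without obesity. A hepatocyte nucleus carries unspliced as well as spliced RNA, so levels counted over whole gene bodies lie closer to transcription than levels in total RNA.

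Levels are counts per unit of library size, given as CPM and scaled with trimmed-mean (TMM) factors. Mice are numbered within each group in the order of their animal numbers in the labels, control 1 to 4, mild 1 to 4 and advanced 1 to 3, and values are given in that order. The numbers pair no mice across groups. Log2 fold changes are advanced against control, with a standard error after ±, and the adjusted p is the Benjamini-Hochberg value of edgeR's quasi-likelihood F-test over all genes tested. A gene was called changed at an adjusted p under 0.05.

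Library totals were 17.7 to 28.2 M counts in control and 12.1 to 21.9 M in advanced mice (two-sided exact permutation test, p = 0.0857, adjusted p = 0.118 over 11 library measures, smallest possible p = 0.0286). Endothelial markers stood at a median of 5.73 to 9.54% of their whole liver level in control and 7.27 to 9.10% in advanced hepatocyte libraries (p = 0.286, exact permutation test). RNA of other cells was thus present in all 7. The summed level of the 22 hepatocyte markers was 21200 to 35900 CPM in control and 11800 to 16900 CPM in advanced mice (p = 0.0571, exact permutation test, adjusted p = 0.0898). The part of this difference in the results below was not tested. Labelled hepatocyte libraries thus held abundant hepatocyte RNA in both groups. The hepatocyte libraries of control mice 1 and 2 deviated from their group in the way of the other's whole liver library (correlation with their own partner -0.226 and -0.296, with the other's 0.866 and 0.771). Both are controls, so a label exchange between them leaves the hepatocyte comparison as it is and touches only the values that pair hepatocyte and whole liver libraries.

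In advanced mice 4028 genes were higher (30.3% of those tested) and 3875 were lower (29.2%), of which 2731 and 1484 differed by 2-fold or more. In bulk libraries such as these, fewer cells of a type and less RNA per cell cannot be told apart. The median log2 fold change over all genes tested was 0.00. With library totals in place of TMM factors this median was 0.49, 6592 genes were higher and 1633 lower, and 80.1% of calls were higher in place of 51.0%. All directions below are therefore relative to the TMM-scaled centre. Of the 7903 genes called, 6187 (78.3%) were called in each of the 7 fits that left out 1 mouse. In the authors' deposited table of CDAHFD advanced against control, 96.5% of the called genes that it also holds had an adjusted p under 0.05, each in the same direction.

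**Figure D1:**
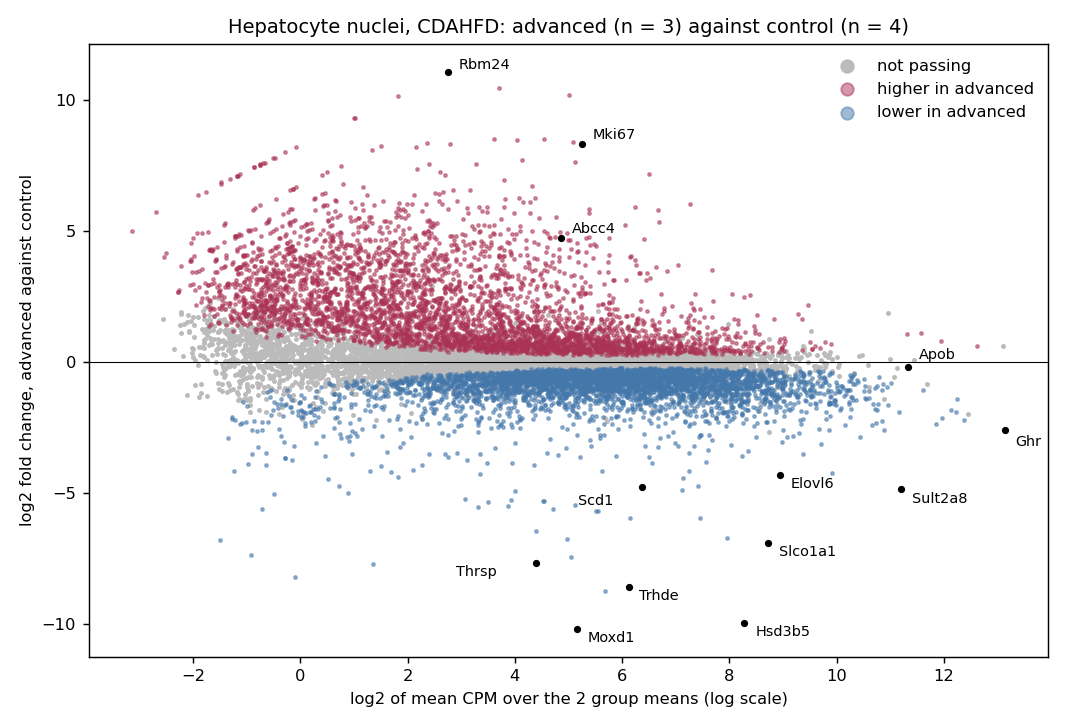
Log2 fold change of advanced (n = 3) against control (n = 4) mice for each of 13277 genes (vertical axis) against the log2 of the mean CPM of both groups (horizontal axis). Coloured points are the 4028 genes higher and 3875 lower in advanced mice, grey points did not pass, and black points are genes described in the text, such as Hsd3b5 at -9.95 and Mki67 at 8.29.

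The lists of genes described below are spread around that centre in a wide range. List counts are of members that passed the filter, which a gene low in controls could pass through mice where it was high. Among the pathway lists, cell type markers aside, male-biased liver genes had the lowest median (-4.26) and fetal and progenitor-associated genes the highest (3.98), beside 0.00 over all genes tested. The lists of fatty acid oxidation, fatty acid uptake, acute phase, iron handling, growth hormone axis and stress response genes had shares of higher and of lower members near or under those of all genes. Their counts therefore show nothing particular to them.

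**Figure D2:**
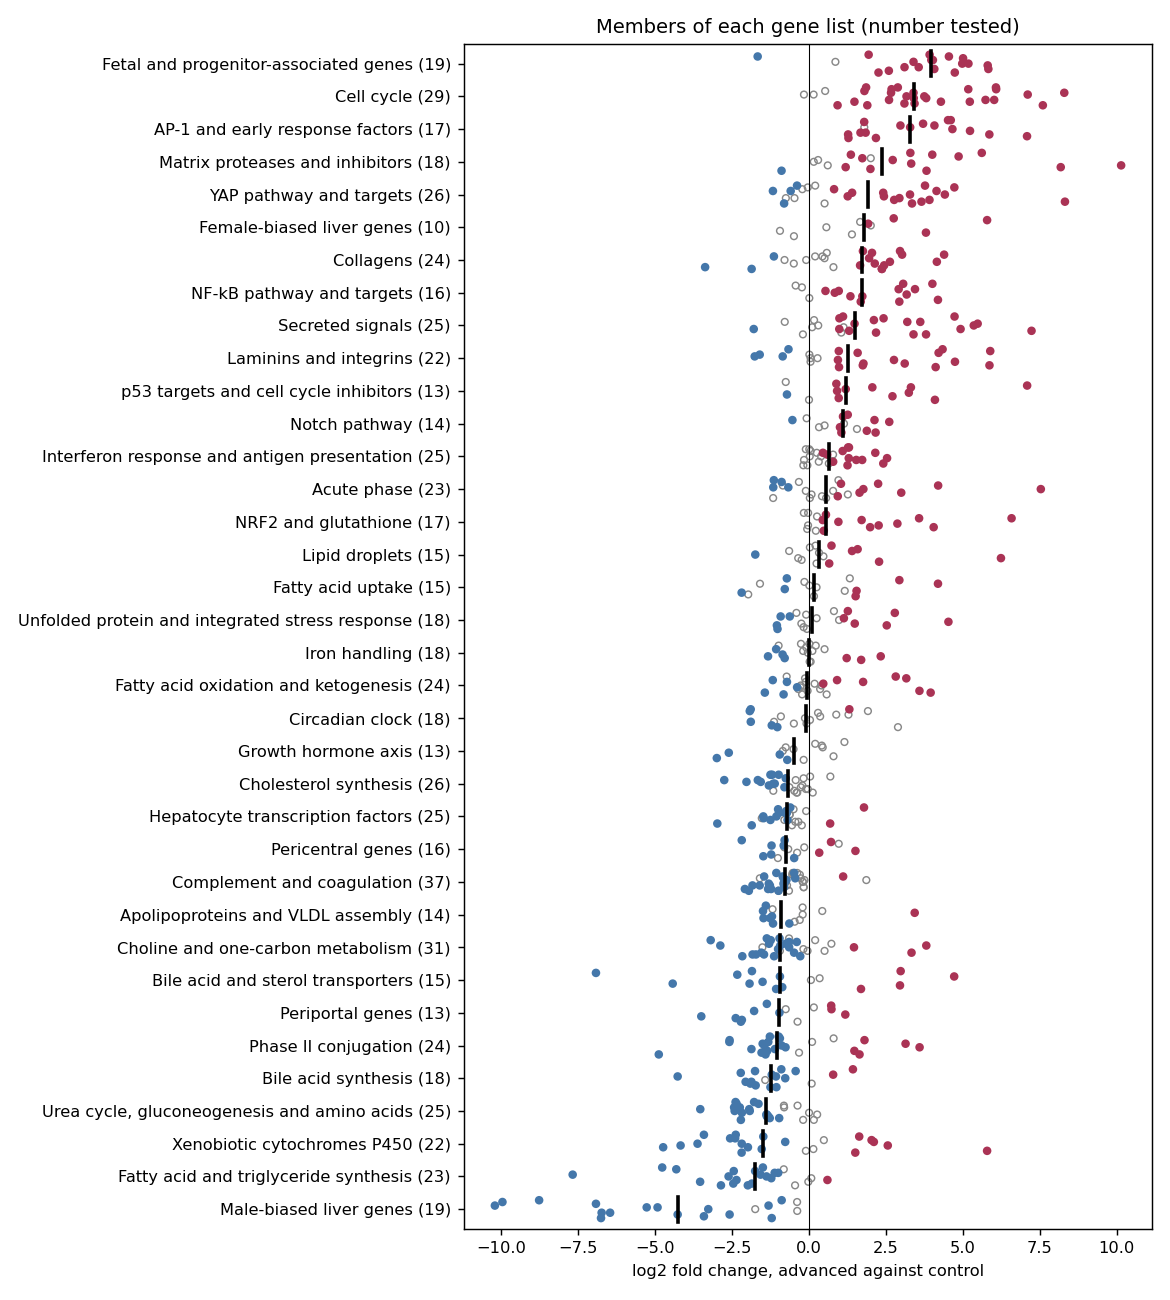
Log2 fold change (horizontal axis) of each tested member of 36 gene lists, advanced against control, with lists ordered by their median (black bar) and the number of members tested in brackets. Filled red points rose, filled blue points fell and open grey points did not pass. Medians run from -4.26 for male-biased liver genes to 3.98 for fetal and progenitor-associated genes.

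Short sequences are shown for promoters of lists whose members moved together. The windows run from 250 bases before to 50 bases after a RefSeq start on GRCm38.p6, read 5′ to 3′ on the gene's strand, and windows were held for 10218 of the 13277 genes tested. The first is the promoter of Dhcr7, the last enzyme of cholesterol synthesis, at chr7:143829964-143830263 on the plus strand, and the second that of Mki67, a marker of dividing cells, at chr7:135716330-135716629 on the minus strand. Both are shown because their lists share the CCAAT box of the factor NF-Y, marked in capitals (CCAAT or, on the other strand, ATTGG).
Dhcr7: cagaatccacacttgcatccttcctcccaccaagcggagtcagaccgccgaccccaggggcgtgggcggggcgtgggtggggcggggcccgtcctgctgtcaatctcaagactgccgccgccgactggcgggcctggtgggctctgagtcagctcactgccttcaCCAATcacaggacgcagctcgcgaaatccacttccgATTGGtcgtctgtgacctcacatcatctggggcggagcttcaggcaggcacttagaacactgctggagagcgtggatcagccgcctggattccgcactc
Mki67: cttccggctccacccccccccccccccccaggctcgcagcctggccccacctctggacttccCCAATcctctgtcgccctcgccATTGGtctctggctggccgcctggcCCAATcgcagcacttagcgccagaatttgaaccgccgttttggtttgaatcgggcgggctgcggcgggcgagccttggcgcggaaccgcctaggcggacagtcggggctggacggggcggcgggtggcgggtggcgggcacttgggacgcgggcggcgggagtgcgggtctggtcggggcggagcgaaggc
Dhcr7 holds 2 such boxes and Mki67 holds 3. A CCAAT box was found in 17 of 18 cholesterol synthesis genes with a window (94.4%) and in 19 of 23 cell cycle genes (82.6%), beside 42.9% of all genes tested. The former list fell in part and the latter rose, so the box was common in lists that moved in opposite directions. Among genes at least 2-fold higher the share was 39.5%, and among those at least 2-fold lower 48.5%.

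Ajuba, a LIM protein that binds LATS kinases in the Hippo pathway, is shown for the motif GGAATG of TEAD factors, searched on both strands and in capitals below, in its promoter at chr14:54577612-54577911, minus strand. F13b, the B subunit of coagulation factor XIII, is shown for the motif GTTAATNAT of the hepatocyte factor HNF1, likewise in capitals, at chr1:139501457-139501756, plus strand.
Ajuba: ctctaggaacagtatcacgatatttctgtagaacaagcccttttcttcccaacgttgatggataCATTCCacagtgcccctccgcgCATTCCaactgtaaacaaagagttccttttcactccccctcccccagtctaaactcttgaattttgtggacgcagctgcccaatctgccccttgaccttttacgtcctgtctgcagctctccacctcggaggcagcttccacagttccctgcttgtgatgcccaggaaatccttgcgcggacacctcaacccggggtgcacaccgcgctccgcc
F13b: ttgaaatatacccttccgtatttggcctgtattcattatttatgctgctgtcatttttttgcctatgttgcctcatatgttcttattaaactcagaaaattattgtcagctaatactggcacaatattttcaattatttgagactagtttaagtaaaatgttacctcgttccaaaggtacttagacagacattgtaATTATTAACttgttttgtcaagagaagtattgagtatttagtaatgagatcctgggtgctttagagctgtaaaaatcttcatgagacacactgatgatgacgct
Ajuba and F13b are the called members of their lists with the smallest adjusted p whose window held the motif. TEAD motifs were found in 10 of 18 promoters of the YAP list (55.6%), beside 14.7% of all genes tested. That list was drawn up from known YAP pathway genes and targets, so its surplus of this motif is no result of these data. Ajuba rose (log2 fold change 2.77 ± 0.24, adjusted p = 2.3e-06). HNF1 motifs were found in 4 of 29 promoters of complement and coagulation genes (13.8%), beside 0.695% of all genes tested, and F13b fell (log2 fold change -1.45 ± 0.21, adjusted p = 0.00010). The HNF1 motif stood in 1.85% of genes at least 2-fold lower and in 0.244% of those at least 2-fold higher. The AP-1 motif TGANTCA stood in 9.46% of genes at least 2-fold higher, in 7.06% of those at least 2-fold lower and in 6.67% of all genes tested. The sterol element TCACNCCAC was found in 1 of 18 promoters of the cholesterol list. These are matches of letters on both strands, no motif contains another, and they describe no binding.

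Of 23 genes of fatty acid and triglyceride synthesis, 18 fell and 1 rose (median -1.74). Scd1 (chr19:44394449-44407709, minus strand), which puts the double bond into stearate, stood at 162, 70.4, 117 and 292 CPM in control mice and 2.36, 11.8 and 3.803 CPM in advanced mice. Every advanced mouse lay far under the lowest control (log2 fold change -4.76 ± 0.68, adjusted p = 0.00015).

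Elovl6, which elongates palmitate, was at 671, 1086, 636 and 1354 CPM in controls and 38.9, 39.5 and 63.5 CPM in advanced mice. The groups did not overlap (log2 fold change -4.31 ± 0.39, adjusted p = 4.6e-06). Acaca, the carboxylase that commits acetyl-CoA to fatty acid synthesis, fell from 1238, 1384, 901 and 2815 CPM to 303, 223 and 254 CPM (log2 fold change -2.61 ± 0.34, adjusted p = 5.9e-05), and Fasn, the synthase itself, from a range of 249 to 1330.1 CPM to one of 58.8 to 134 CPM (log2 fold change -2.86 ± 0.52, adjusted p = 0.00075). Control 4 was the highest of its group for Scd1, Elovl6, Acaca and Fasn. Me1, which supplies NADPH to the pathway, fell (log2 -2.35 ± 0.23, adjusted p = 5.6e-06).

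Thrsp, a nuclear protein of lipogenic tissues, fell from a range of 11.6 to 91.6 CPM to one of 0 to 0.410 CPM (log2 -7.67 ± 1.14). Pnpla3, a lipid droplet hydrolase driven by the lipogenic factor SREBP1c, fell (log2 -3.53 ± 0.63), and so did Acss2, which makes acetyl-CoA from acetate (log2 -1.98 ± 0.16). Lpin2, a phosphatidate phosphatase, was the only member to rise (0.603 ± 0.16). In mild mice, set against the same 4 controls, 15 of the 23 genes were lower, where 26.7% of all genes were lower and 29.6% higher. Scd1 stood at 2.04 to 5.297 CPM and Elovl6 at 53.6 to 111 CPM in mild mice.

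The lipogenic genes were a point of difference between the diets. Under FPC, where 27.0% of genes were higher and 21.2% lower in advanced mice, 6 of the 23 genes fell and 2 rose. The difference between diets was the CDAHFD change minus the FPC change in a fit of all 22 hepatocyte libraries, in which 4.50% of genes were higher and 7.36% lower. It was called for 7 of 23 lipogenic genes, all lower under CDAHFD. Scd1 had a log2 change of 1.02 under FPC (adjusted p = 0.087), and the difference was -5.74 ± 0.75 (adjusted p = 0.00029). Elovl6 was at -0.17 under FPC (difference -4.08 ± 0.82, adjusted p = 0.0050), and Acaca at -0.33 (difference -2.23 ± 0.43, 0.0039). Pnpla3 rose under FPC (log2 2.75, adjusted p = 0.0032), a difference of -6.23 ± 1.11 (adjusted p = 0.0026). FPC and CDAHFD were given for 20 and 7 weeks, so diet and duration cannot be told apart.

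Cholesterol synthesis fell in part. Of 26 genes 12 fell and none rose (median -0.69), and with library totals in place of TMM 9 fell and 2 rose. Insig1, the sterol-regulated anchor of SREBP, was at 120.5, 136, 255 and 78.2 CPM in controls and 26.7, 16.8 and 22.1 CPM in advanced mice, without overlap (log2 fold change -2.75 ± 0.37, adjusted p = 7.7e-05). Dhcr7 (promoter above) fell from a range of 21.4 to 38.3 CPM to one of 10.97 to 14.8 CPM (log2 fold change -1.19 ± 0.18, adjusted p = 0.00017). The desaturase Sc5d (log2 -1.25 ± 0.22) and the acetyl-CoA transferase Acat2 (-1.16 ± 0.17) fell too.

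Sqle, squalene epoxidase, was at 21.1, 12.9, 7.98 and 6.98 CPM in controls and 20.1, 28.03 and 11.9 CPM in advanced mice. The groups overlapped, and the log2 change of 0.697 ± 0.41 did not pass (adjusted p = 0.16), but without control 1 it reached 1.08 (adjusted p = 0.025). Under FPC all 26 genes of the list fell, with Sqle at -1.65, and the difference between diets was called for 10 of 26, each higher under CDAHFD. It was 2.404 ± 0.56 for Sqle (adjusted p = 0.010).

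**Figure D3:**
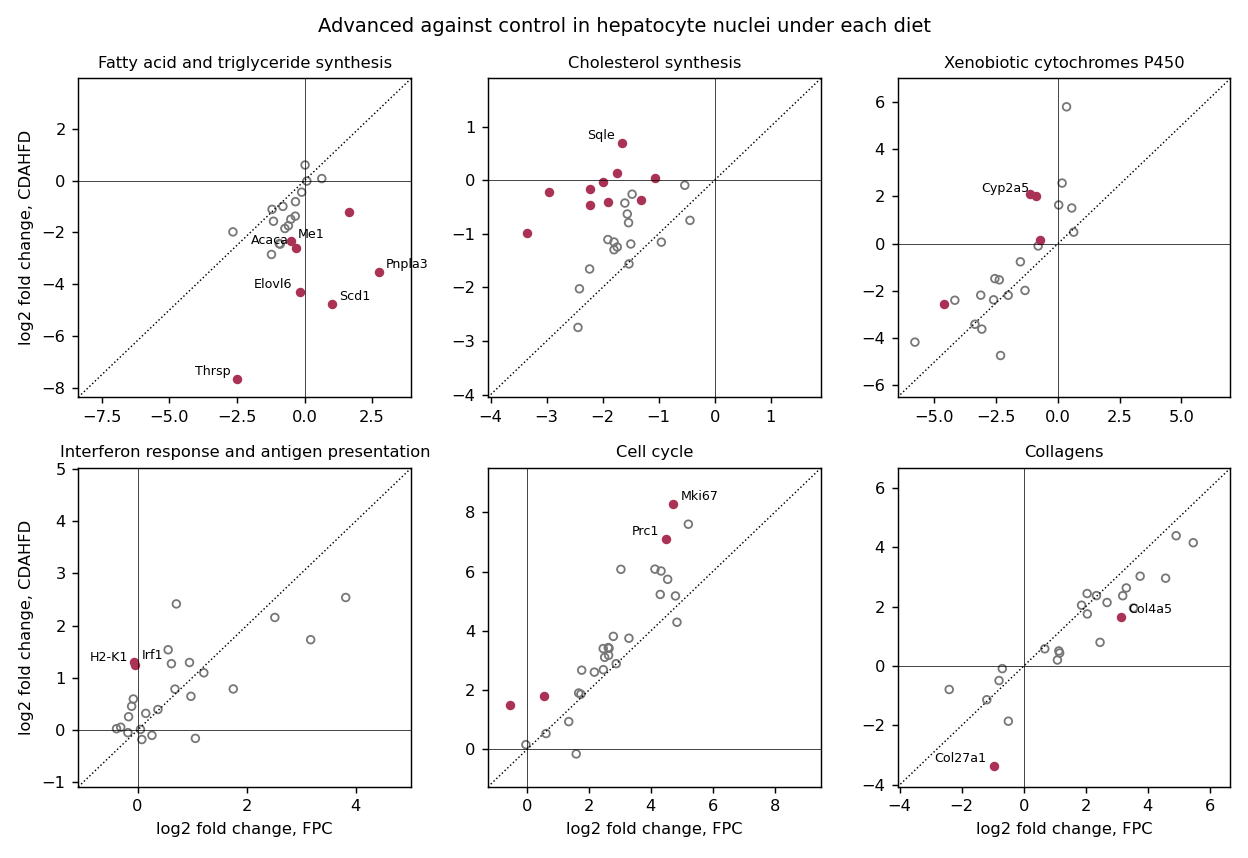
Log2 fold change of advanced against control hepatocyte nuclei under CDAHFD (vertical axis) and under FPC (horizontal axis) for members of 6 lists. Each panel has its own range and the dotted line marks equal change. Red points passed the test of the difference between diets: Scd1, Elovl6 and Pnpla3 lie far under the line and Sqle above it. Red points are named where the text describes the gene.

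Some genes for taking up fat changed. Cd36, a fatty acid transporter that healthy hepatocytes barely express, was at 6.79, 2.81, 2.77 and 2.37 CPM in controls and 91.5, 44.3 and 67.2 CPM in advanced mice, more than 6 times the highest control in each (log2 fold change 4.19 ± 0.38, adjusted p = 5.4e-06). Pparg, the adipogenic receptor, rose from a range of 31.7 to 65.4 CPM to one of 95.8 to 153 CPM (1.52 ± 0.23). Lpl, lipoprotein lipase, rose (log2 2.94 ± 0.39, adjusted p = 6.0e-05), but after subtraction of carried-over RNA it was at 1.12 (adjusted p = 0.43). Hepatic lipase Lipc fell (log2 -2.18 ± 0.40, 0.00070). Of 15 uptake genes 4 rose and 3 fell, both under the shares of all genes (30.3% and 29.2%).

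Of 15 lipid droplet genes tested 6 rose and 1 fell (median 0.33), where 30.3% of all genes were higher and 29.2% lower. The share that rose was thus little above that of all genes. Cidec, which fuses droplets into large ones, was at 1.07, 0.165, 0.198 and 0.285 CPM in controls and 29.2, 39.8 and 30.3 CPM in the advanced group (log2 fold change 6.24 ± 0.47, adjusted p = 1.3e-06). The coat protein Plin4 (log2 2.28 ± 0.28) and the lipase Pnpla2, also called ATGL (1.58 ± 0.27), rose, and the monoglyceride lipase Mgll fell (-1.74 ± 0.23). Plin2, the general marker of droplets, stood at 184, 128, 134 and 41.1 CPM in controls and 139.9, 162 and 123 CPM in advanced mice. Its groups overlapped, and the change did not pass (0.22 ± 0.38, adjusted p = 0.65). Library totals called 10 droplet genes higher.

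Fatty acid oxidation and ketogenesis were divided: 7 of 24 rose and 5 fell (median -0.07, or 0.42 with library totals). Fgf21, the fasting hormone, rose from a range of 0.380 to 5.34 CPM to one of 17.8 to 44.5 CPM (log2 fold change 3.59 ± 0.67, adjusted p = 0.00086). The coactivator Ppargc1a fell (log2 -1.17 ± 0.18). Cpt1a, the gate of mitochondrial import, did not pass (0.37 ± 0.20, adjusted p = 0.13).

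VLDL assembly is the export step that choline shortage impairs. Mttp, which loads lipid onto apolipoprotein B, was at 278, 239.6, 297 and 395 CPM in controls and 108, 92.2 and 123 CPM in advanced mice, with no overlap (log2 fold change -1.49 ± 0.17, adjusted p = 2.0e-05). Apob itself was at 2913, 2414, 3059 and 2621 CPM and 2803, 2309 and 2072 CPM, and its change did not pass (-0.201 ± 0.16, adjusted p = 0.29). Of 14 genes of the list 7 fell, Apoc3, an inhibitor of lipoprotein lipase, among them (-1.47 ± 0.21). Apoa4, an apolipoprotein of triglyceride-rich particles, was the 1 that rose, from 16.6, 7.26, 8.37 and 3.99 CPM to 106, 111 and 77.9 CPM (log2 fold change 3.44 ± 0.36, adjusted p = 1.3e-05). It stood at 18.96 to 22.9 CPM in mild mice, under every advanced mouse (advanced against mild 2.21 ± 0.34, adjusted p = 0.0088).

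Choline and one-carbon metabolism fell in 20 of 31 genes and rose in 3 (median -0.93; 11 and 7 with library totals). Pemt, which makes phosphatidylcholine by methylating phosphatidylethanolamine and is the liver's route around dietary choline, was at 320.1, 867, 702 and 778 CPM in controls and 279.5, 241 and 327 CPM in the advanced group (log2 fold change -1.24 ± 0.30, adjusted p = 0.0036). Control 1 lay within the advanced range and the other 3 controls above it. Gnmt, which disposes of surplus methyl groups, fell from 92.6, 192, 219 and 294 CPM to 40.5, 32.5 and 60.4 CPM (log2 fold change -2.16 ± 0.37, adjusted p = 0.00046). Bhmt, which remethylates homocysteine with choline-derived betaine, fell (log2 -2.88 ± 0.91, adjusted p = 0.019), and without advanced 2 the adjusted p was 0.065.

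Mat1a, the maker of S-adenosylmethionine, fell (log2 -1.0 ± 0.27, adjusted p = 0.0066), and with library totals did not pass. Mthfd1, a folate enzyme of the cytosol, fell (-1.37 ± 0.19), while its mitochondrial relative Mthfd1l rose from a range of 3.88 to 10.2 CPM to one of 73.3 to 114 CPM (log2 fold change 3.81 ± 0.35, adjusted p = 5.2e-06). The choline transporter-like Slc44a2 rose (log2 3.33 ± 0.35). Pcyt1a, the rate-limiting enzyme of the choline route to phosphatidylcholine, and Chka, choline kinase, did not pass (-0.18 ± 0.14, adjusted p = 0.28, and 0.51 ± 0.30, 0.16). The difference between diets in this list was called for 6 genes, 3 higher and 3 lower under CDAHFD.

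Bile acid importers fell. Slc10a1 (chr12:80953184-80968079, minus strand), the sodium-dependent bile acid importer NTCP, was at 404, 273, 241 and 153 CPM in controls and 9.02, 11.7 and 16.5 CPM in the advanced group (log2 fold change -4.42 ± 0.36, adjusted p = 2.1e-06). Slco1a1, a sinusoidal organic anion importer, fell from 779.8, 833, 862 and 872 CPM to 8.82, 4.85 and 7.095 CPM (log2 fold change -6.91 ± 0.37, adjusted p = 1.6e-07). Its lowest control was far above its highest advanced mouse, and mild mice lay between at 36.95 to 90.8 CPM (advanced against mild -3.28 ± 0.31, adjusted p = 0.00057). Slco1b2 fell (log2 -2.32 ± 0.17).

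Abcc4 (chr14:118482691-118706219, minus strand), which exports bile acids to the blood in cholestasis, was at 1.41, 1.36, 3.82 and 2.14 CPM in controls and 56.9, 61.3 and 50.1 CPM in the advanced group (log2 fold change 4.72 ± 0.29, adjusted p = 2.9e-07). The drug pump Abcb1a rose (log2 2.96 ± 0.29). In all 9 of 15 transporters fell and 4 rose, and 5 were lower in advanced than in mild mice, where 1.52% of all genes were.

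Bile acid synthesis fell in 14 of 18 genes and rose in 2 (median -1.23; 9 and 3 with library totals). Cyp8b1, which makes cholic acid, fell from a range of 17.3 to 49.5 CPM to one of 2.19 to 8.08 CPM (log2 fold change -2.21 ± 0.44, adjusted p = 0.0013). Cyp7b1 of the alternative pathway fell from 4132, 875, 1293 and 1025 CPM to 105, 74.9 and 107 CPM (log2 fold change -4.26 ± 0.62, adjusted p = 0.00015), and Cyp27a1 fell (log2 -1.204 ± 0.17). The bile acid receptor Nr1h4 (FXR) fell (log2 -1.25 ± 0.16). Cyp7a1, the rate-limiting enzyme, was one of the 2 that rose, at 45.2, 51.2, 59.5 and 52.2 CPM in controls and 192, 37.7 and 190.3 CPM in advanced mice. Advanced 2 lay under all 4 controls and the other two advanced mice above them, and the call (1.43 ± 0.52, adjusted p = 0.035) was lost without any 1 of 6 of the 7 mice (adjusted p 0.051 to 0.12 in those fits) and without a filter on low counts (0.064).

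**Figure D4:**
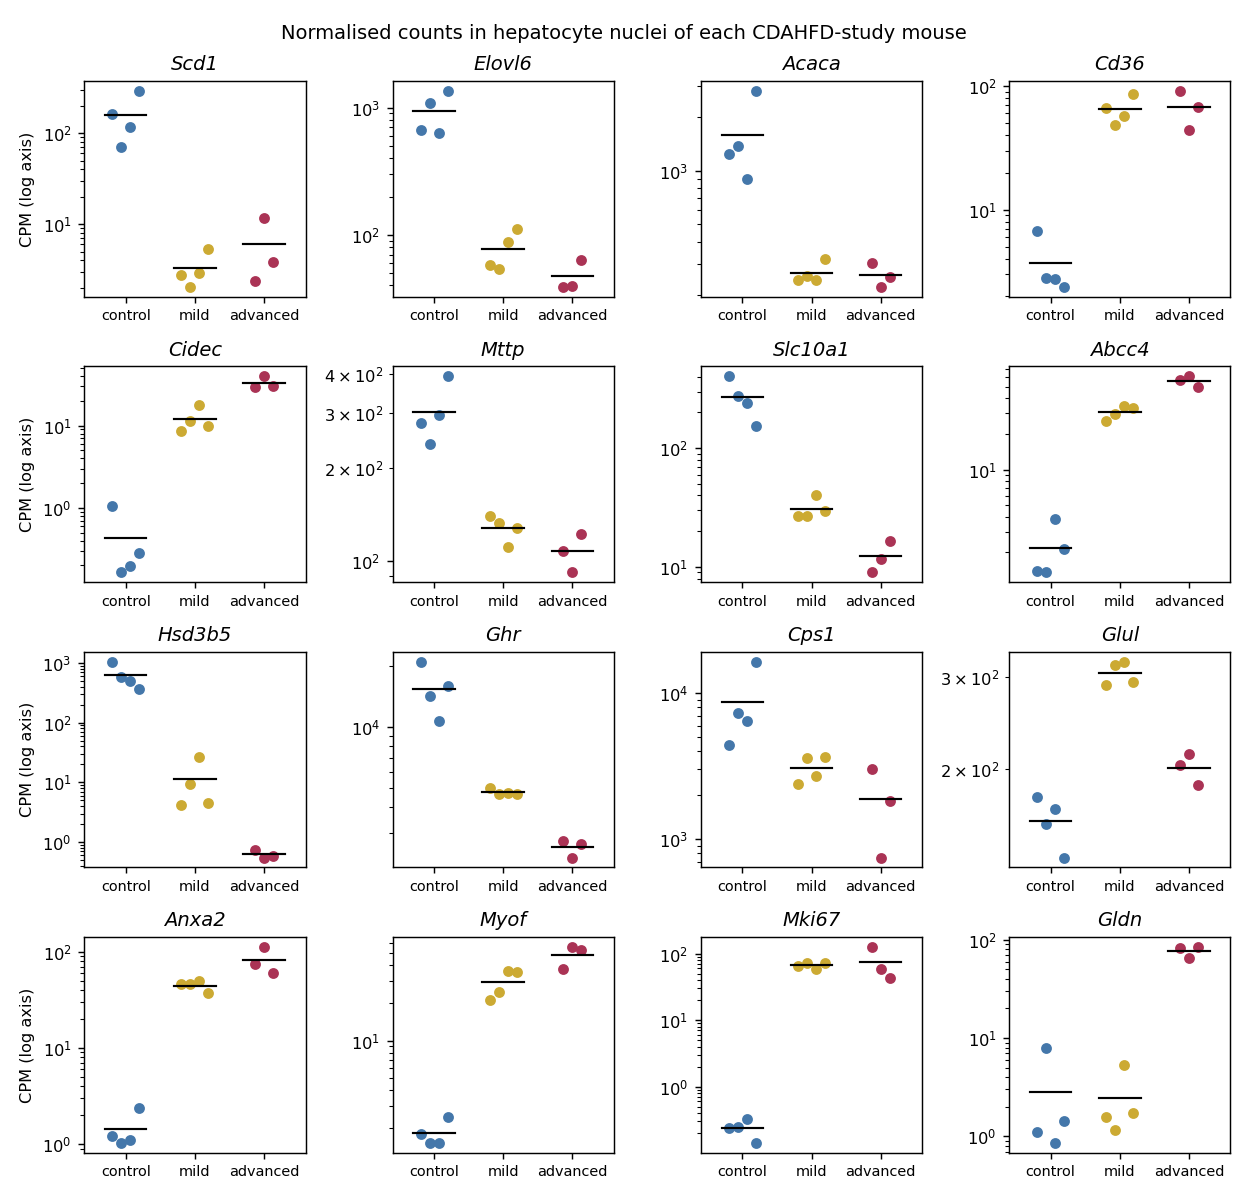
TMM-scaled CPM of 16 genes in hepatocyte nuclei of each mouse (log axis), with control (n = 4), mild (n = 4) and advanced (n = 3) mice side by side and a bar at the group mean. Gldn is near the control level in mild mice and between 65.6 and 84.5 CPM in advanced mice, and Mki67 is at 58.4 to 72.4 CPM in mild and 42.5 to 126 CPM in advanced mice.

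Xenobiotic cytochromes P450 fell in 13 of 22 genes and rose in 6 (median -1.51). Cyp2d9 fell from 371, 703, 784 and 514 CPM to 44.9, 46.3 and 76.1 CPM (log2 fold change -3.41 ± 0.28, adjusted p = 2.2e-06) and so did the periportal Cyp2f2 (log2 -2.38 ± 0.23). Cyp1a2 fell (log2 -2.18 ± 0.51). Cyp2e1, the ethanol-oxidising enzyme, was at 2906, 2125, 1988 and 408 CPM in controls and 614, 509.5 and 874 CPM in advanced mice. Control 4 lay under all 3 advanced mice, and the call (-1.48 ± 0.48, adjusted p = 0.020) was lost with library totals, in the fit of the 7 libraries alone and without advanced 1 or 2.

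Some P450 genes rose. Cyp2b9, of a phenobarbital-inducible subfamily, was at 6.401, 0.454, 3.56 and 4.08 CPM in controls and 302, 191 and 105 CPM in advanced mice, and at 563, 304, 115 and 886 CPM in mild mice (log2 fold change 5.79 ± 0.85, adjusted p = 0.00018). Cyp2a5, the coumarin hydroxylase, rose from 22.9, 55.4, 46.02 and 47.4 CPM to 93.6, 254 and 181 CPM (log2 fold change 2.04 ± 0.35, adjusted p = 0.00045). Under FPC none of the 23 P450 genes tested rose and 15 fell, and the difference between diets for Cyp2a5 was 2.96 ± 0.53 (adjusted p = 0.0025). Mean Cyp2a5 was 42.9 CPM in control and 176 CPM in advanced mice here. In the FPC study it was 162.5 CPM in control and 88.8 CPM in advanced mice, so the controls differed as well. Reads of the near-identical Cyp2a and Cyp2b copies may be divided between genes, so levels of single copies are uncertain.

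Phase II conjugation fell in 16 of 24 genes and rose in 5 (median -1.04; 10 and 6 with library totals). Sult2a8, a bile acid sulfotransferase, was at 5235, 4987, 4767 and 3190.2 CPM in controls, 2074, 1653, 1668 and 1127 CPM in mild and 229.6, 138 and 97.1 CPM in advanced mice. The 3 groups did not overlap (log2 fold change -4.87 ± 0.36, adjusted p = 8.5e-07, and -3.395 ± 0.33 against mild, adjusted p = 0.00057). Ugt2b1 fell (log2 -2.57 ± 0.31).

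Alpha class glutathione transferases rose. Gsta1 was at 0.0970, 0, 0.264 and 0.332 CPM in controls and 18.6, 61.9 and 24.7 CPM in the advanced group (log2 fold change 7.702 ± 0.60, adjusted p = 1.8e-06). Its near-copy Gm3776 had 1 count over 4 controls and 1279 over 3 advanced libraries, a ratio of 1890.0 (95% interval of the counts 338 to 74600.0), and Gm10639 rose (log2 4.93 ± 0.59). Counts of these copies may have been divided among them. Under FPC the changes were 2.59, 2.78 and 0.06, and the differences between diets were 5.16 ± 0.79 (adjusted p = 0.00072), 7.72 ± 1.15 (0.00056) and 4.93 ± 0.74 (0.00055). The controls differed too, with means of 0.173, 0.0121 and 0.0941 CPM here and 3.24, 1.46 and 1.16 CPM in the FPC study. Advanced means were 35.1, 26.1 and 3.21 CPM here and 19.7, 10.2 and 1.21 CPM under FPC. The mu class Gstm3 rose (log2 3.596 ± 0.48).

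Genes of NRF2, the oxidative stress factor, and of glutathione rose in 11 of 17, with none lower (median 0.55). Nqo1, its classic target, rose from 0.727, 1.32, 1.58 and 0.807 CPM to 4.78, 5.402 and 3.06 CPM (log2 fold change 1.99 ± 0.31, adjusted p = 0.00018). Sulfiredoxin Srxn1 rose (log2 1.71 ± 0.20) and so did heme oxygenase Hmox1 (log2 2.87 ± 0.33). The cystine importer Slc7a11 had 1 count over the controls and 96 over the advanced libraries, a ratio of 142 (95% interval of the counts 24.8 to 5650.0). Hmox1 rose more than under FPC (difference 2.04 ± 0.49, adjusted p = 0.012).

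Male-biased liver genes fell. In male mice pulses of growth hormone sustain a set of liver genes through STAT5b, and 16 of 19 such male-biased genes fell and none rose (median -4.26). Hsd3b5 (chr3:98618635-98645534, minus strand), a male-specific steroid dehydrogenase, was at 1053, 573, 499 and 359 CPM in controls, 4.198, 9.28, 26.99 and 4.47 CPM in mild and 0.741, 0.547 and 0.588 CPM in the advanced group (log2 fold change -9.95 ± 0.95, adjusted p = 1.0e-05). Each step was without overlap, and the advanced level was lower than the mild one (log2 -4.16 ± 0.82, adjusted p = 0.029). Mup3, a major urinary protein, fell from a range of 259 to 593 CPM to one of 4.24 to 4.94 CPM (-6.73 ± 0.41). Mup12 fell (log2 -8.76 ± 0.68) and so did the complement regulator Susd4 (log2 -4.91 ± 0.38). Mup copies share reads and are uncertain singly. The FPC study gave 16 of 19 lower as well.

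Of 16 female-biased genes measured 10 passed the filter, and of these 4 rose and none fell (median 1.79; 7 rose with library totals). Over all genes 30.3% were higher and 29.2% lower. A gene low in controls could pass the filter through mice on CDAHFD, so these counts and the median may lean upwards. Cyp2a4 rose from 2.04, 3.71, 3.89 and 4.27 CPM to 28.4, 63.3 and 53.8 CPM (log2 fold change 3.802 ± 0.34, adjusted p = 3.9e-06) and so did Cux2, a repressor of male genes that is normally confined to female liver (log2 1.93 ± 0.39). Cux2 rose less than under FPC (difference -2.75 ± 0.84, adjusted p = 0.039). Advanced FPC mice were uneven for Cux2, with a mean of 44.4 CPM and a standard deviation of 49.6 CPM.

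Of 13 genes of the growth hormone axis 4 fell and none rose (median -0.50, or 0.00 with library totals), where 29.2% of all genes were lower and 30.3% higher. The share that fell was thus near that of all genes. Ghr (chr15:3317754-3583352, minus strand), the growth hormone receptor, was at 20969.8, 14242, 10697 and 15840.1 CPM in controls and 2722, 2263 and 2649 CPM in the advanced group (log2 fold change -2.601 ± 0.22, adjusted p = 2.2e-06). Mild mice lay between at 4665 to 4982 CPM (advanced against mild -0.901 ± 0.20, adjusted p = 0.041). Stat5b fell (log2 -0.94 ± 0.13) and so did Bcl6, a male-biased repressor (log2 -2.99 ± 0.42). Igf1 was at 3103, 155, 402 and 390.5 CPM in controls and 656, 515 and 633 CPM in advanced mice and did not pass (-0.75 ± 0.98, adjusted p = 0.53). Control 1 was high for Igf1 and for Socs2, a target of growth hormone pulses (35.6, 3.34, 3.17 and 1.99 CPM in controls, 33.8, 18.9 and 21.4 CPM in advanced mice). Socs2 did not pass with all mice (1.15 ± 0.98, adjusted p = 0.33), and without control 1 it was 3.11 (adjusted p = 0.0045).

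Genes of nitrogen and glucose metabolism fell in most cases. Of 25 genes of the urea cycle, gluconeogenesis and amino acid breakdown 18 fell and none rose (median -1.38). Otc, of the urea cycle, was at 433, 692, 702 and 612 CPM in controls and 130.4, 96.5 and 133 CPM in the advanced group (log2 fold change -2.35 ± 0.20, adjusted p = 2.2e-06), and Cps1, its first enzyme, at 4434, 7315, 6477 and 16446 CPM and 3043, 747 and 1836 CPM (log2 fold change -2.21 ± 0.52, adjusted p = 0.0033). Neither gene's groups overlapped, although control 4 was more than 2-fold above the other controls for Cps1. Hal, histidine ammonia-lyase, fell (log2 -2.18 ± 0.31) and so did Fbp1, of gluconeogenesis (log2 -1.94 ± 0.27).

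Zonation genes gave a mixed picture. Of 13 periportal genes 7 fell and 3 rose, and of 16 pericentral genes 7 fell and 3 rose. With library totals 1 pericentral gene was lower and 4 higher. Rnf43 and Znrf3, Wnt feedback ligases of the central zone, fell (log2 -1.21 ± 0.34 and -0.82 ± 0.14), and neither passed with library totals. Glul, glutamine synthetase of the innermost pericentral layer, was at 177, 157, 168 and 136 CPM in controls, 289, 316, 321 and 293 CPM in mild and 204, 214 and 187 CPM in advanced mice. It was highest in mild mice, and above control in advanced mice without overlap (log2 fold change 0.34 ± 0.11, adjusted p = 0.021), a call lost without advanced 2 (adjusted p = 0.082) and in the fit of the 7 libraries alone (0.052). Under FPC Glul fell (log2 -1.205 ± 0.21, difference 1.59 ± 0.29, adjusted p = 0.0022), and in whole liver nuclei of the CDAHFD mice it fell (log2 -0.44 ± 0.12). In whole liver nuclei 31.1% of genes were higher and 22.2% lower in advanced mice. The hepatocyte change minus the whole liver change, higher for 3.63% and lower for 6.62% of genes, was 0.75 ± 0.17 for Glul (adjusted p = 0.0075).

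Hepatocyte transcription factors fell in 13 of 25 and rose in 2 (median -0.71; 6 and 2 with library totals). Thrb, the thyroid hormone receptor, was at 2834, 2323, 2785 and 2922 CPM in controls and 753, 660.1 and 838 CPM in the advanced group (log2 fold change -1.86 ± 0.14, adjusted p = 9.4e-07). Nr5a2, or LRH-1, fell (log2 -1.47 ± 0.13), as did the glucocorticoid receptor Nr3c1 (log2 -0.999 ± 0.10). Hnf4a fell (log2 -0.74 ± 0.19, adjusted p = 0.0060) but did not pass with library totals, and Cebpa did not pass (-0.62 ± 0.32, 0.11). Cebpb, the factor of the acute phase, rose (log2 1.79 ± 0.21) and so did Foxa3 (log2 0.69 ± 0.21). Foxa3 was not called without advanced 2 (adjusted p = 0.082). Nr5a2 fell more than under FPC (difference -0.95 ± 0.21, adjusted p = 0.0074), and Cebpb rose more (1.65 ± 0.43, 0.019).

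A pair of factors of other epithelia appeared. Elf3, an epithelial ETS factor, was at 0.0970, 0.206, 0 and 0.665 CPM in controls and 6.66, 8.55 and 5.76 CPM in the advanced group (log2 fold change 4.74 ± 0.52, adjusted p = 1.4e-05), and Glis2, a zinc finger factor of kidney, at 0.291, 0.495, 0.659 and 0.522 CPM and 5.92, 14.2 and 14.3 CPM (log2 fold change 4.55 ± 0.49, adjusted p = 1.3e-05).

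Plasma protein genes fell in part. Of 37 complement and coagulation genes 19 fell and 1 rose (median -0.78; 11 and 3 with library totals). Plg, plasminogen, was at 1709, 1515, 1895 and 1564 CPM in controls and 576, 355 and 477 CPM in the advanced group (log2 fold change -1.83 ± 0.18, adjusted p = 7.0e-06), C8a fell (log2 -1.597 ± 0.16) and so did prekallikrein Klkb1 (log2 -1.95 ± 0.23). Cfb, complement factor B, was the 1 that rose (log2 fold change 1.11 ± 0.19, adjusted p = 0.00042). It rose more than under FPC (1.003 ± 0.28, adjusted p = 0.026).

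Of 23 acute phase genes 8 rose and 4 fell (median 0.56), with 30.3% and 29.2% of all genes. Lcn2, the siderophore-binding lipocalin, was at 0, 0.124, 0 and 0.237 CPM in controls and 16.1, 19.9 and 21.8 CPM in the advanced group (log2 fold change 7.53 ± 0.45, adjusted p = 2.2e-07). Orm2 rose (log2 4.198 ± 0.47) and so did Saa1 (log2 2.25 ± 0.36), and Crp fell (log2 -1.14 ± 0.16). Of 18 iron genes 3 rose and 4 fell. Ferritin heavy chain Fth1 rose (log2 1.23 ± 0.19), Tmprss6, which restrains hepcidin, fell (log2 -1.33 ± 0.13), and hepcidin, Hamp, was at 101, 229, 158 and 73.5 CPM in controls and 144, 148 and 134 CPM in advanced mice and did not pass (0.02 ± 0.33, adjusted p = 0.97).

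Most listed genes of fetal liver, progenitors and injured epithelium rose. Of 19 fetal and progenitor-associated genes 17 rose and 1 fell (median 3.98), and of 26 genes of the YAP pathway 16 rose and 4 fell (median 1.91). Anxa2, a membrane-binding annexin, was at 1.21, 1.03, 1.12 and 2.37 CPM in controls and 74.5, 113 and 59.8 CPM in the advanced group (log2 fold change 5.83 ± 0.30, adjusted p = 1.2e-07), and the hyaluronan receptor Cd44 at 3.103, 3.63, 4.75 and 4.99 CPM and 42.8, 48.3 and 54.8 CPM (log2 fold change 3.57 ± 0.20, adjusted p = 1.7e-07). Tnfrsf12a, the receptor of the injury cytokine TWEAK, rose (log2 4.07 ± 0.26). Cdh2, the N-cadherin of hepatocyte junctions, was the 1 that fell, from a range of 1245 to 2015 CPM to one of 427 to 528 CPM (-1.66 ± 0.17). With it, the summed level of the fetal and progenitor list was lower in advanced mice (840 to 862 CPM) than in controls (1270 to 2060 CPM). Afp, the fetal albumin, did not pass (0.86 ± 0.49, adjusted p = 0.15).

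Ankrd1, a YAP target, had 3 counts over the 4 control libraries and 720 over the 3 advanced ones, a ratio of 354 (95% interval of the counts 121 to 1720.0). Myof rose from 1.79, 1.53, 1.52 and 2.47 CPM to 36.96, 56.00 and 52.8 CPM (log2 fold change 4.72 ± 0.26, adjusted p = 1.5e-07) and so did Amotl1 (log2 2.94 ± 0.28). Yap1 itself fell, from a range of 273 to 326 CPM to one of 168 to 175 CPM (log2 fold change -0.804 ± 0.10, adjusted p = 3.8e-05).

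Biliary genes rose within the hepatocyte preparation. Of 14 cholangiocyte markers 13 rose and none fell (median 4.19), and their summed level was 433 to 545 CPM in control and 1360 to 1950 CPM in advanced mice (p = 0.0286, exact permutation test, the smallest possible; adjusted p = 0.0524). Cftr, the chloride channel, was at 0.533, 0.578, 0.264 and 0.760 CPM in controls and 29.1, 41.2 and 44.5 CPM in the advanced group (log2 fold change 6.11 ± 0.50, adjusted p = 2.4e-06), the factor Ehf at 0.679, 0.908, 1.06 and 1.61 CPM and 20.5, 34.1 and 39.3 CPM (log2 fold change 4.87 ± 0.45, adjusted p = 5.3e-06), and Glis3 rose (log2 3.69 ± 0.33). Spp1, osteopontin, rose from a range of 1.52 to 3.297 CPM to one of 19.7 to 35.1 CPM (3.92 ± 0.45). Sox9 rose (log2 1.94 ± 0.36) and so did keratin Krt19, with 0 counts in 3 controls (log2 4.98 ± 1.05). All 14 biliary markers could be tested after subtraction of carried-over whole liver RNA, and 13 were then higher. That fit, scaled by the endothelial ratio of each mouse, had 28.3% of genes higher and 27.4% lower. The part of the biliary markers in the other results was not tested.

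Notch genes rose in 8 of 14, with 1 lower (median 1.12). The ligand Jag1 rose from 22.3, 17.5, 12.9 and 16.4 CPM to 32.1, 38.8 and 37.1 CPM (log2 fold change 1.06 ± 0.21, adjusted p = 0.0011), less than under FPC (-1.44 ± 0.29, adjusted p = 0.0042), and the coactivator Maml2 rose (log2 2.17 ± 0.34). Rbpj, the DNA-binding factor, was lower (-0.53 ± 0.11) but not with library totals. AP-1 and early response factors rose in 16 of 17 (median 3.29), with Klf6 at 7.56, 5.24, 10.02 and 2.897 CPM in controls and 69.4, 59.9 and 57.8 CPM in the advanced group (log2 fold change 3.29 ± 0.31, adjusted p = 5.6e-06). Ier3 rose (log2 5.86 ± 0.46).

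Cell cycle genes rose from low levels. Of 29 such genes 26 rose and none fell (median 3.40), and their summed level was 26.7 to 29.3 CPM in control, 217 to 261 CPM in mild and 244 to 436 CPM in advanced mice. Mki67 (chr7:135689787-135716379, minus strand) was at 0.242, 0.248, 0.330 and 0.142 CPM in controls and 126, 58.9 and 42.5 CPM in the advanced group (log2 fold change 8.29 ± 0.43, adjusted p = 1.5e-07). Advanced 1 had the highest level and every advanced mouse was over 100 times the highest control. Top2a, the mitotic topoisomerase, was at 0.436, 0.165, 0.659 and 0.332 CPM and 32.9, 16.1 and 12.6 CPM (log2 fold change 5.74 ± 0.43, adjusted p = 1.0e-06), Tpx2 rose (log2 6.02 ± 0.52) and so did Prc1, of the midzone of the spindle (log2 7.11 ± 0.52). Mild mice, at 65.98, 72.2, 58.4 and 72.4 CPM of Mki67, were not distinguished from advanced ones (advanced against mild 0.17 ± 0.29, adjusted p = 0.79).

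The rise of Mki67 exceeded that under FPC, which was 4.73 ± 0.41 (difference 3.63 ± 0.68, adjusted p = 0.0033), as did that of Prc1 (2.67 ± 0.76, 0.028). It also exceeded the rise in whole liver nuclei of the same mice (3.82 ± 0.27, difference 4.45 ± 0.47, adjusted p = 4.3e-06). The difference between fractions was called higher for 7 of the 29 cell cycle genes. Ccnd1, the G1 cyclin, rose (log2 4.29 ± 0.45). Inhibitors rose beside the drivers: 10 of 13 p53 targets and cell cycle inhibitors rose and 1 fell (median 1.2). Cdkn1a, or p21, was at 1.31, 0.701, 0.659 and 0.190 CPM in controls and 9.56, 17.8 and 9.72 CPM in the advanced group (log2 fold change 4.09 ± 0.42, adjusted p = 8.3e-06). Mdm2, the p53 ligase, rose (log2 0.97 ± 0.12) and under FPC had -0.02 (difference 1.04 ± 0.18, adjusted p = 0.0019).

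Collagen genes changed in both directions in hepatocyte nuclei. Of 24 collagens 13 rose and 3 fell (median 1.71), while their summed level was 1600 to 2460 CPM in control and 1020 to 1270 CPM in advanced mice. Col4a5 was at 21.2, 18.6, 20.2 and 16.8 CPM in controls and 74.1, 52.9 and 55.5 CPM in the advanced group (log2 fold change 1.66 ± 0.15, adjusted p = 2.8e-06), and Col4a1 rose from a range of 17.5 to 43.5 CPM to one of 84.02 to 105 CPM (1.76 ± 0.28). Col16a1 rose (log2 4.39 ± 0.42). Col1a1, the fibrillar collagen of scars and a stellate cell product, was at 0.533, 0.413, 0.989 and 1.09 CPM and 4.71, 6.701 and 6.86 CPM (log2 fold change 3.03 ± 0.33, adjusted p = 1.2e-05). Col27a1, Col18a1 and Col15a1 fell, the first from 240.3, 265, 280.2 and 628 CPM to 18.98, 37.5 and 45.8 CPM (log2 fold change -3.37 ± 0.40, adjusted p = 3.5e-05) and the next with a log2 fold change of -1.14 ± 0.22.

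Laminins and integrins rose in 14 of 22 and fell in 4, and their sum was lower in advanced mice (1940 to 2180 CPM) than in controls (2880 to 3210 CPM). Lama5 rose from 2.62, 2.76, 3.82 and 2.897 CPM to 60.6, 91.4 and 90.01 CPM (log2 fold change 4.74 ± 0.32, adjusted p = 6.6e-07) and so did Itgb4, the integrin of hemidesmosomes (log2 5.87 ± 0.58). Itga1, a collagen receptor, fell from a range of 149 to 196 CPM to one of 53.7 to 62.7 CPM (log2 fold change -1.597 ± 0.12, adjusted p = 1.0e-06). Matrix proteases and inhibitors rose in 13 of 18, with 1 lower. After subtraction of carried-over RNA 7 of the 15 that could be tested were higher and 1 lower. Mmp7, matrilysin, had 0 counts in the 4 control libraries and 443 in the 3 advanced ones, at least 218-fold higher against a floor of 3 counts over the controls. Adamts1 rose (log2 3.82 ± 0.26) and so did the urokinase receptor Plaur (log2 5.62 ± 0.46).

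Secreted signals rose in 17 of 25, with 1 lower (median 1.48). Il34, a ligand of the macrophage receptor CSF1R, was at 0.873, 0.743, 1.06 and 0.427 CPM in controls and 13.9, 28.5 and 27.5 CPM in the advanced group (log2 fold change 4.93 ± 0.36, adjusted p = 7.9e-07). The monocyte attractant Ccl2 had 1 count over the controls and 154 over the advanced libraries, a ratio of 227 (95% interval of the counts 40.2 to 9030.0). Pdgfa, which drives stellate cells, rose (log2 2.11 ± 0.35) and so did Bmp8b (log2 4.73 ± 0.37). Vegfc, the lymphatic growth factor, fell from 45.97, 48.9, 50.97 and 47.3 CPM to 16.1, 13.1 and 12.7 CPM (log2 fold change -1.79 ± 0.12, adjusted p = 5.3e-07).

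Genes of inflammatory signalling rose. Of 16 NF-kB genes 13 rose and none fell (median 1.71), with Relb at 3.54, 1.86, 2.64 and 1.95 CPM in controls and 36.4, 57.02 and 43.1 CPM in the advanced group (log2 fold change 4.19 ± 0.24, adjusted p = 1.9e-07). Nfkb2 rose (log2 3.45 ± 0.22), and so did the inhibitor Tnfaip3 (log2 3.18 ± 0.18). Interferon response and antigen presentation rose in 13 of 25, with none lower (median 0.65). H2-K1, a class I histocompatibility chain, was at 64.7, 51.4, 58.8 and 55.2 CPM in controls and 101, 151 and 160.2 CPM in the advanced group (log2 fold change 1.26 ± 0.16, adjusted p = 3.9e-05), and Ifit2 rose (log2 2.54 ± 0.33). The factor Irf1 rose (log2 1.302 ± 0.22). Under FPC 6 of the 25 rose. H2-K1 was at -0.04 and Irf1 at -0.06 there, and the differences were 1.35 ± 0.27 (adjusted p = 0.0049) and 1.41 ± 0.36 (0.017).

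The unfolded protein and integrated stress response was mixed, with 6 of 18 higher and 4 lower. Trib3, a target of the factor ATF4, rose from a range of 2.99 to 12.99 CPM to one of 35.8 to 52.8 CPM (2.53 ± 0.40) and so did Phgdh, of serine synthesis (log2 4.53 ± 0.59). Gdf15, a stress hormone, did not pass (1.05 ± 0.59, adjusted p = 0.14), and without control 3 it was 1.66 (adjusted p = 0.023).

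Recruited macrophage markers rose as well. All 13 recruited macrophage markers rose (median 3.78), with a summed level of 8.79 to 12.7 CPM in control and 102 to 125 CPM in advanced mice. Gpnmb, of lipid-laden macrophages, was at 0, 0, 0.0659 and 0.190 CPM in controls and 18.2, 23.2 and 32.1 CPM in the advanced group (log2 fold change 8.49 ± 0.52, adjusted p = 2.7e-07). Itgax rose (log2 5.36 ± 0.27), the lipid receptor Trem2 had 3 counts over the controls and 146 over the advanced libraries, and Mmp12 had 2 and 514. In whole liver nuclei Gpnmb rose (log2 9.58 ± 0.37) and so did Itgax (log2 6.01 ± 0.19). After subtraction of carried-over RNA only 4 of the 13 had enough counts left to be tested, and 3 of these were higher. Itgax was not called in that fit (2.96, adjusted p = 0.14).

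Kupffer cell markers rose in 7 of 13 and fell in 3, and their sum was 134 to 211 CPM in control and 154 to 189 CPM in advanced mice (p = 0.857, exact permutation test). Csf1r and Adgre1 rose (log2 3.19 ± 0.28 and 2.91 ± 0.17), and Timd4, of long-lived resident cells, fell from a range of 0.679 to 2.24 CPM to one of 0 to 0.118 CPM (-3.94 ± 0.75). Of 18 lymphocyte markers 10 passed the filter, and of these 5 rose and none fell. Markers low in controls could pass through mice on CDAHFD, so these counts may lean upwards. Themis, counted among them, was at 17.3, 15.3, 6.86 and 4.04 CPM in controls and 129, 151 and 148 CPM in the advanced group (log2 fold change 3.71 ± 0.41, adjusted p = 2.1e-05), and carried most of the summed lymphocyte level of 141 to 166 CPM. Endothelial markers were little changed in number (2 of 18 higher and 2 lower), with Stab1 up (log2 2.92 ± 0.22) and Stab2 not passing (-0.22 ± 0.18, adjusted p = 0.29), and their sum was lower in advanced mice (543 to 805 against 981 to 1310 CPM). Stellate cell markers rose in 6 of 15 and fell in 2, 3 of 12 being higher after the subtraction. Their sum was 119 to 260 CPM in control and 178 to 222 CPM in advanced mice (p = 0.943, exact permutation test). Lrat, the retinoid enzyme of stellate cells, was lower (log2 -1.83 ± 0.69, adjusted p = 0.037). That call was lost with library totals (-1.34, adjusted p = 0.11), in the fit of the 7 libraries alone (0.065) and without control 3 or 4 or advanced 1 or 3 (0.061 to 0.085). The part of carried-over RNA in the other results was not tested beyond that fit.

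**Figure D5:**
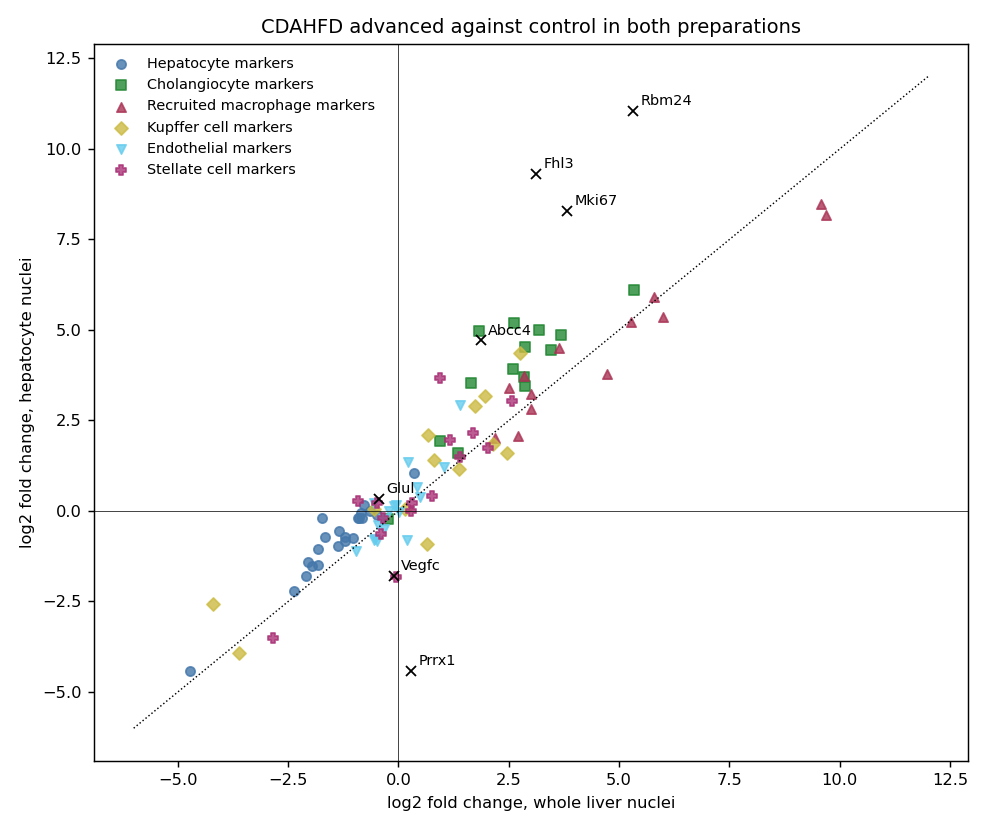
Log2 fold change of advanced against control mice in hepatocyte nuclei (vertical axis) and whole liver nuclei of the same mice (horizontal axis) for 6 lists of cell type markers, with the dotted line at equal change. Most cholangiocyte markers lie above the line, but the difference between preparations was called for only 1 of the 14. Crosses mark genes such as Prrx1 (-4.41 in hepatocyte nuclei, 0.29 in whole liver) and Mki67.

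The hepatocyte preparation differed from whole liver in both directions, with 519 genes changed more upwards and 947 more downwards. With mouse as a block these counts were 1054 and 1518, and 1804 and 2439 when the whole liver libraries of controls 1 and 2 were also exchanged. DESeq2's size factor scaling (RLE) in edgeR gave 662 and 638 in place of 519 and 947. Prrx1, a mesenchymal homeobox factor, was at 7.95, 6.85, 6.86 and 5.18 CPM in control and 0.269, 0.342 and 0.314 CPM in advanced hepatocyte nuclei (log2 fold change -4.41 ± 0.37, adjusted p = 2.2e-06). In whole liver nuclei it was at 0.29 ± 0.21 (difference -4.73 ± 0.38, adjusted p = 1.7e-07), and after subtraction of carried-over RNA the hepatocyte fall was called too (adjusted p = 9.7e-05). Vegfc, with the fall given above, was at -0.11 ± 0.11 in whole liver (difference -1.7 ± 0.16, 1.3e-06). Higher in hepatocyte nuclei than in whole liver were the changes of Abcc4 (difference 2.84 ± 0.31, adjusted p = 4.9e-06) and Amotl1 (2.43 ± 0.31, 3.4e-05).

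The largest rises were of genes that control hepatocytes hardly express. Rbm24 (chr13:46418299-46431099, plus strand), a splicing factor of muscle, had 0 counts in control libraries and 715 in advanced ones, at least 351-fold higher, with 12.7, 17.03 and 10.9 CPM in advanced and 1.94 to 3.46 CPM in mild mice. Fhl3, a LIM protein of muscle, was at least 110.0-fold and 6030419C18Rik at least 109-fold higher on the same floor. Cacna1b, a neuronal calcium channel, was at 0.0485, 0.124, 0.198 and 0 CPM in controls and 30.7, 34.7 and 32.97 CPM in the advanced group (log2 fold change 8.46 ± 0.44, adjusted p = 1.1e-07). Igdcc4 (chr9:65101485-65137947, plus strand), a receptor of the immunoglobulin superfamily, was at 0.291, 0.165, 0 and 0 CPM and 33.3, 37.7 and 69.2 CPM (log2 fold change 8.51 ± 0.80, adjusted p = 7.1e-06), and the Ras regulator Rasal1 at 0.436, 0.124, 0.198 and 0.0475 CPM and 57.4, 72.5 and 72.8 CPM (log2 fold change 8.37 ± 0.50, adjusted p = 3.1e-07). Vmn2r3, of the vomeronasal receptor family whose copies share reads, rose (log2 10.17 ± 0.70). Marco, a scavenger receptor of macrophages, rose (log2 4.36 ± 0.46) and under FPC was at -0.58 (difference 4.99 ± 1.33, adjusted p = 0.020).

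The largest falls beside the male-biased genes were of scattered function. Trhde (chr10:114398820-114801370, minus strand), which degrades thyrotropin-releasing hormone, was at 132, 155, 94.95 and 174 CPM in controls and 0.471, 0.342 and 0.274 CPM in the advanced group (log2 fold change -8.61 ± 0.43, adjusted p = 1.1e-07), a larger fall than under FPC (-2.69 ± 0.58, adjusted p = 0.0070). Moxd1, a monooxygenase, was at 16.2, 245, 7.78 and 14.8 CPM in controls and had 3 counts in all over the advanced libraries. Control 2 was far above the other controls for Moxd1. Lect1, or chondromodulin, was at 2.76 to 6.93 CPM and had 1 count over the advanced libraries. Ptges, prostaglandin E synthase, was at 0.776, 1.69, 1.19 and 3.75 CPM in controls and had 0 counts in advanced mice, at least 34.8-fold lower, and Plcxd1 was at least 19.7-fold lower. Under FPC Ptges and Plcxd1 did not pass (0.54 and 0.78), and the differences between diets were called (adjusted p = 0.0092 and 0.0079). Mup9 fell (log2 -7.47 ± 0.89). Slc1a1, a glutamate transporter, rose (log2 2.43 ± 0.62) here and had 7.81 under FPC (difference -5.32 ± 1.54, adjusted p = 0.029).

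Advanced and mild CDAHFD mice differed in far fewer genes: 173 were higher (1.30%) and 202 lower (1.52%) in advanced mice, 121 and 81 by at least 2-fold. Without advanced 2 these counts were 40 and 20, and DESeq2 gave 618 and 515, so the number depends on the tool and on single mice. Gldn (chr9:54286485-54341777, plus strand), gliomedin, was at 1.12, 7.96, 0.857 and 1.42 CPM in controls, 1.58, 1.17, 5.27 and 1.72 CPM in mild and 81.9, 65.6 and 84.5 CPM in advanced mice. Mild and control mice shared 1 range, and every advanced mouse was above it (advanced against mild 4.99 ± 0.74, adjusted p = 0.0088). Pde10a, a cyclic nucleotide phosphodiesterase, was at 5.08, 5.66, 5.62 and 5.49 CPM in mild and 93.3, 43.8 and 45.7 CPM in advanced mice (3.48 ± 0.26, adjusted p = 0.00011). Frmd5 was at 0.539 to 1.15 CPM in mild and 22.96, 4.85 and 11.7 CPM in advanced mice (4.06 ± 0.51, 0.0026), and Igdcc4 at 0.968 to 6.87 CPM in mild mice (3.71 ± 0.56, 0.0085). Tmc5 and the protease inhibitor Slpi were higher in advanced mice (log2 3.78 ± 0.88 and 3.596 ± 0.77).

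Genes lower in advanced than in mild mice included Sult2a8, Hsd3b5 and Slco1a1, with values given above, and Mup12 (-3.596 ± 0.70, adjusted p = 0.025). Ptgds, prostaglandin D synthase, was at 4.36, 3.26, 1.91 and 3.13 CPM in controls, 9.98, 7.899, 2.06 and 5.297 CPM in mild and 0, 1.03 and 0.784 CPM in advanced mice (-3.34 ± 0.71 against mild, adjusted p = 0.035). Mild and control mice overlapped for Ptgds, and advanced mice lay under both. Tulp2 (-3.39 ± 0.51) and Cetn1 (-3.46 ± 0.82) were also lower than in mild mice, at low levels, and Cetn1 against control was not called in the fit of the 7 libraries alone (adjusted p = 0.056), with library totals (0.080) or without control 1 or advanced 1 or 3 (0.066 to 0.095). Since histology placed the mice in these groups, a gene that differs between them may differ with any feature the histology reflects. Frmd5 had 0.64 under FPC and did not pass there (adjusted p = 0.53, difference between diets 5.26 ± 1.16, 0.0083), while Gldn and Pde10a rose under FPC as well (log2 6.12 and 4.596).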

How the data were processed

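The authors deposited raw gene counts for nuclear RNA of 44 libraries, made from total nuclear RNA with a stranded kit without poly-A selection, per the labels' protocols. STAR 2.4.2a, DESeq2 1.24.0 and build mm10 are named in the submitters' processing notes, and the counting tool and strand setting are not given in the sources used here. For 94.7% of genes in the authors' table the counted length equals the gene length, so counts cover introns. The authors' deposited table of log2 fold changes and p-values was used only for comparison of calls. All 20105 identifiers were measured, 79 of them without a symbol.

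The 11 CDAHFD hepatocyte libraries were fitted together in edgeR 4.0.16 (R 4.3.3, limma 3.58.1) with filterByExpr, TMM scaling and the robust quasi-likelihood F-test, adjusted by Benjamini-Hochberg over all genes tested. The difference between diets was fitted on 22 hepatocyte libraries and that between fractions on 22 CDAHFD libraries. Hepatocyte and whole liver libraries are paired by mouse, and 9 of 11 hepatocyte libraries correlated best with their own mouse's whole liver library. Carry-over was subtracted as the whole liver count scaled by each mouse's endothelial ratio. Scripts were tested on simulated data. Genes without counts in a group are given as bounds against 3 counts over the group, ratios with a 95% interval that covers counting error only. Genes were named from the lists and from the largest changes past the threshold at a mean of at least 1 CPM, and a few genes that this rule names are not reported here. The comparison, gene lists and genes named were chosen with earlier results of these data known. Promoter windows are RefSeq's on GRCm38.p6, and coordinates of genes are those of the authors' table. DESeq2 1.42.0, other filters and scalings, omission of each mouse, the mouse block and the carry-over subtraction were the alternatives. Library totals and the exchanged pairing were chosen after the data were seen.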

Additional observations from a re-analysis of the deposited data

Results flagged for a closer look

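The change from control to advanced mice differed between CDAHFD and FPC hepatocyte nuclei for 47 of the 191 genes described. This is by the test of the difference itself (adjusted p under 0.05 in edgeR). Over all genes tested in that fit the difference was higher for 4.5% and lower for 7.36%. Some of the 191 genes were named for a large difference between diets, so 47 of 191 is not a rate to compare with these shares. The CDAHFD change was lower, with log2 differences of -5.74 for Scd1, -4.08 for Elovl6, -2.23 for Acaca, -1.8 for Me1, -6.23 for Pnpla3, -5.14 for Thrsp, -1.95 for Lpl, -1.21 for Mgll, -2.75 for Cux2, -0.71 for Znrf3, -0.95 for Nr5a2, -0.44 for Yap1 and -1.44 for Jag1. Also lower were differences of -1.52 for Maml2, -1.71 for Glis3, -1.42 for Col4a5, -2.35 for Col27a1, -1.06 for Itga1, -1.67 for Vegfc, -2.69 for Trhde, -8.79 for Ptges, -8.2 for Plcxd1, -2.44 for Prrx1 and -5.32 for Slc1a1. It was higher, with log2 differences of 2.4 for Sqle, 2.27 for Cd36, 1.39 for Pnpla2, 0.7 for Apob, 2.96 for Cyp2a5, 1.64 for Sult2a8, 5.16 for Gsta1, 7.72 for Gm3776, 4.93 for Gm10639, 2.04 for Hmox1, 1.59 for Glul, 1.65 for Cebpb and 1.0 for Cfb. Also higher were differences of 2.46 for Orm2, 3.63 for Mki67, 2.67 for Prc1, 1.04 for Mdm2, 1.33 for Nfkb2, 1.35 for H2-K1, 1.41 for Irf1, 4.94 for Fhl3, 5.26 for Frmd5 and 4.99 for Marco. Fhl3, Ptges and Plcxd1 had 0 counts in a CDAHFD group, and Gm3776 and Slc1a1 1 to 3 counts in a control group, so these differences are fitted values that depend on the prior count and bound nothing. Each change is set against its own study's controls, and for some genes these controls differed. Cd36 had control means of 3.68 CPM (CDAHFD study) and 26.7 CPM (FPC study), and advanced means of 67.6 and 104.9 CPM. For H2-K1 the control means were alike, at 57.5 and 58.1 CPM.

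The change differed between hepatocyte and whole liver nuclei of the CDAHFD mice for 35 of the 191 genes, by the same kind of test. Some of the 191 were named for a large difference between preparations, so 35 of 191 is likewise not a rate. Over all genes tested in that fit the difference was higher for 3.63% and lower for 6.62%. That fit had no mouse block, although both preparations come from the same mice, and with the block 1054 genes in place of 519 were higher and 1518 in place of 947 lower over all genes. In hepatocyte nuclei the change was lower, with log2 differences of -0.65 for Nr3c1, -0.9 for Rbpj, -0.98 for Itga1, -1.7 for Vegfc, -7.06 for Ptges and -4.73 for Prrx1. The hepatocyte change was higher, with log2 differences of 0.67 for Apob, 2.02 for Slc44a2, 2.84 for Abcc4, 0.75 for Glul, 2.51 for Glis2, 1.07 for Cfb, 2.17 for Lcn2, 0.76 for Crp, 2.35 for Anxa2, 1.27 for Cd44, 2.43 for Amotl1, 4.45 for Mki67 and 2.3 for Top2a. Higher as well were differences of 2.44 for Tpx2, 3.19 for Prc1, 2.82 for Col16a1, 2.3 for Lama5, 2.83 for Itgb4, 1.51 for Adamts1, 3.02 for Il34, 4.48 for Ccl2, 1.04 for Relb, 2.63 for Phgdh, 1.21 for Csf1r, 1.15 for Adgre1 and 1.51 for Stab1. More differences above 0 were 5.96 for Rbm24, 6.41 for Fhl3 and 2.74 for Pde10a. Rbm24, Fhl3 and Ptges had 0 counts in a hepatocyte group and Ccl2 had 1, so their differences are fitted values of the same kind.

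In 32 of 321 groups of 4 control or mild mice with a mean of at least 1 CPM, 1 mouse stood apart from the other 3 by more than Dixon's limit of 0.829 of the group's range, a limit that chance passes in about 1 in 20 groups. Control 1 was high for Cd36 (6.79 CPM), Cyp7b1 (4132 CPM), Igf1 (3103 CPM) and Socs2 (35.6 CPM). Control 2 was high for Susd4 (459 CPM), Moxd1 (245 CPM) and Gldn (7.96 CPM). Control 2 was low for Apoc3 (39.8 CPM). Control 3 was high for Spp1 (3.3 CPM). Control 4 was high for Anxa2 (2.37 CPM) and Col27a1 (628 CPM). Control 4 was low for Sc5d (183 CPM), Pnpla2 (5.56 CPM) and Stab2 (39.3 CPM). Mild 1 was high for Gm3776 (15.3 CPM) and Ghr (4982 CPM). Mild 1 was low for Slc7a11 (1.46 CPM). Mild 2 was high for Cpt1a (903 CPM). Mild 3 was high for Plaur (5.77 CPM), Bmp8b (3.71 CPM), Gpnmb (28.3 CPM), Rbm24 (3.46 CPM) and Gldn (5.27 CPM). Mild 3 was low for Crp (20.1 CPM). Mild 4 was high for Acaca (321 CPM), Thrsp (6.77 CPM), Mgll (277 CPM), Bhmt (387 CPM), Mat1a (1313 CPM), Cyp2f2 (96.6 CPM) and Rbpj (73.8 CPM). Mild 4 was low for Klf6 (33.6 CPM).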

How the results depend on the processing

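For advanced against control, the counts without each mouse in turn were 3585 to 4063 higher and 3301 to 3829 lower. At 2-fold or more 1484 genes were lower, and library totals without a scaling factor gave 6592 higher and 1633 lower. For advanced against mild, DESeq2 gave 618 higher and 515 lower, and omission of 1 mouse gave 40 to 169 and 20 to 145. For the difference between diets DESeq2 gave 952 higher, and omission of 1 mouse gave 337 to 672 higher and 613 to 998 lower, the lowest of each without advanced 2. For hepatocyte minus whole liver, DESeq2 gave 987 higher, the replicate block by mouse 1054 higher and 1518 lower, the block with whole liver libraries of controls 1 and 2 exchanged 1804 and 2439, and omission of 1 mouse 308 to 507 and 551 to 875. The cause was not tested.

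Genes that had not passed changed sign under some settings. With library totals Apob was at 0.29, Pcyt1a at 0.31 and Stab2 at 0.27. Hamp was at -0.01 without a filter, and from -0.2 to 0.36 without 1 mouse, at or under 0 (-0.13, -0.2, 0 and -0.02) without control 1 or 4 or advanced 1 or 2. Igf1 ran from -1.11 to 0.91 without 1 mouse, the latter without control 1, and Plin2 from -0.07 to 0.47, the former without control 4. Advanced libraries held 12.1 to 21.9 M and control libraries 17.7 to 28.2 M counts, and the part of depth in the calls was not tested.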
